A study of Rattus norvegicus with 12 samples.

Results

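Antigen presentation by class I molecules of the major histocompatibility complex (MHC) was examined in rat lung through 8 genes. They were the class I heavy chain genes RT1-A, RT1-CE5 and RT1-T24-3, the light chain gene B2m, the peptide transporter genes Tap1 and Tap2, and the immunoproteasome genes Psmb8 and Psmb9. Every probe set whose platform annotation named 1 single gene, and that gene was among these 8, was taken, which gave 14 of 31099 probe sets on the array. Of these, 12 were bright enough over the 12 arrays to be tested, among 18625 tested in all, and each of the 8 genes kept at least 1 probe set.

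Right lungs of rats weighing 250 to 350 g were measured, from SS (Dahl Salt Sensitive) and BN (Brown Norway) animals. Both are inbred strains, called parents in the study's design. Either strain had control lungs and HTV lungs, and HTV is a ventilation setting left unexplained in the labels (high tidal volume is the common reading in lung work). No transgene or other treatment is named for any group, and the sources used here do not say whether control animals were ventilated or how long HTV lasted. Each of the 4 groups had 3 arrays, from animals with separate numbers in the labels, and replicate numbers below only name arrays. A whole lung was used, so fewer cells of a type and less RNA per cell cannot be told apart.

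Class I molecules display short peptides from inside the cell to cytotoxic T cells. Proteasomes cut proteins into peptides, the Tap1 and Tap2 proteins together pump the peptides into the endoplasmic reticulum, and there a heavy chain folds around a peptide and the light chain made by B2m. Interferons raise most of these genes and replace catalytic subunits of the ordinary proteasome with the immunoproteasome subunits made by Psmb8 and Psmb9. The heavy chain genes of the rat, named RT1, form a family of near-identical copies whose number and sequence differ between strains. B2m, the transporter genes and the immunoproteasome genes are single-copy genes outside that family.

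Promoters are shown because B2m, Tap1 and Tap2 share a motif there that most rat genes lack. In the RefSeq promoter table of the assembly GRCr8, 7 of the 8 genes had an entry, with RT1-A the exception. The 250 bases before each start site were searched on both strands for the core of the interferon-stimulated response element, taken as GAAA, any 2 bases and GAAA. It was present in 3.41% of 33469 promoters and in those of B2m (150 bases before the start), Tap2 (41 bases) and Tap1 (121 bases, on the reverse strand). Each stretch is printed on the gene's own strand with the match in capitals, at chr3:129549135-129549234 (plus strand) for B2m, chr20:4652297-4652382 (minus strand) for Tap2 and chr20:4668610-4668709 (minus strand) for Tap1.
B2m: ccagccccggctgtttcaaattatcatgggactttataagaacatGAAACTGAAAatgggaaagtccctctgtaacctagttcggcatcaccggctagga
Tap2: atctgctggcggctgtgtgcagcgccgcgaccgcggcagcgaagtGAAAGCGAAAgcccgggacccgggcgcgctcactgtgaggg
Tap1: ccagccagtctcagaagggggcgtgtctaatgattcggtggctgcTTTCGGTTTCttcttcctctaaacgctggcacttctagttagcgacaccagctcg
The NF-kB core, taken as GGG, any 5 bases and CC and present in 42.3% of promoters, was found at RT1-CE5, RT1-T24-3, B2m, Tap1 and Psmb9. At B2m and Psmb9 some of its matches overlap each other. TTCNNNGAA, a gamma-activated site found in 7.67% of promoters, was present at Psmb8. The CCAAT box, in 34% of promoters, was present at RT1-CE5, RT1-T24-3, B2m and Psmb8. A match is a run of letters and not a measured binding site.

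In the same assembly Tap2, Psmb8, Tap1 and Psmb9 are neighbours on chromosome 20, in that order, inside the class II part of the MHC. RT1-CE5 lies 80 genes away from Psmb9 and RT1-T24-3 lies 114 genes away. B2m lies on chromosome 3, outside the MHC.

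Intensities are the linear values deposited per probe set. Each difference was taken between log2(intensity + 16) values, a scale that understates the change of dim probe sets, and is printed with limma's standard error (SE). A call is a limma adjusted p below 0.05. Median intensity was 58.5 to 68.1 per array and arrays correlated at r = 0.883 to 0.980. The tissue label was borne out by 8 of 8 lung epithelial markers, with the surfactant gene Sftpc at 2919.8 to 4581.3.

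The library labelled SS control 3 stood apart, over the whole array as well as at class I genes. At 46 of 18625 probe sets it lay more than 1 log2 unit beyond all other 11 arrays, against 13 for BN HTV 2 and 0 to 3 for the others. It did so at 1 of 30 tested class I and class II probe sets. Of 20 tested class I probe sets, it lay inside the range of the other 5 SS arrays but outside the BN range at 0, between the strains' ranges at 5, above both at 3, below both at 7, in the BN range alone at 2 and in both ranges at 3. Over all tested probe sets, 1.48% lay between the ranges and 18.3% in the SS range alone. At 52 framework and class III probe sets of the MHC region these shares were 1.92% and 26.9%. An array can lie between the ranges only where the strains do not overlap, so the shares are no even base for class I. The beta-actin 5-prime to 3-prime log2 ratio of SS control 3, a measure of RNA integrity, was -1.40, where the other SS arrays had -1.01 to -0.23 and the BN arrays -1.46 to -0.88. Whether its strain label is right is in doubt and was not tested, and each SS control mean holds this array. Calls that rest on SS controls are given with and without it.

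**Figure D1:**
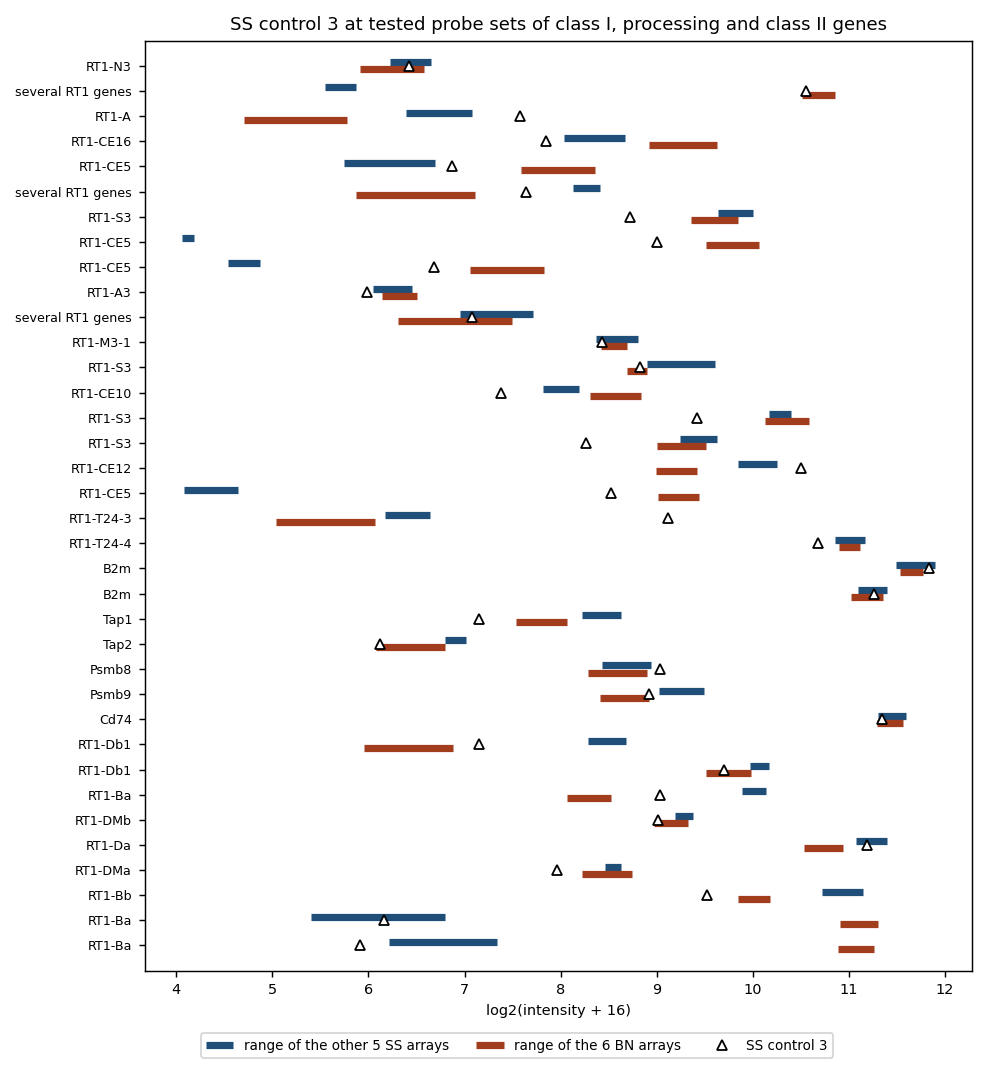
Tested probe sets of class I, processing and class II genes by log2(intensity + 16): bars span the other 5 SS arrays and the 6 BN arrays, and the open triangle is SS control 3. Repeated names are different probe sets of a gene. At the 4 RT1-CE5 probe sets the triangle lies between the bars, and at RT1-T24-3 it lies 2.47 above both.

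Between the strains RT1-CE5 was higher in BN lungs in both conditions, RT1-A was lower in both, and RT1-T24-3 was lower in controls. In control lungs 6 of the 12 probe sets passed the test, 4 higher and 2 lower, from 3 genes; 12.2% of all tested probe sets did (6.41% higher, 5.84% lower). Under HTV 5 passed, 4 higher and 1 lower, from 2 genes, where the share over all tested probe sets was 8.24% (4.42% higher, 3.82% lower). Without SS control 3 the counts were 7 probe sets of 4 genes in controls (11.6% of all) and 8 of 5 genes under HTV (11.8% of all). These counts lend no support of their own, because 5 of the 12 probe sets (RT1-A, RT1-T24-3 and RT1-CE5 probe sets 1, 2 and 4) had a mean below the filter level in 1 strain and entered the test through the other. Of the 7 with means above that level in both strains, 1 was called in each condition, RT1-CE5 probe set 3. With no filter the calls of RT1-A and of the 4 RT1-CE5 probe sets held, the least of them at adjusted p = 0.0249, and that of RT1-T24-3 was lost (adjusted p = 0.0604). B2m did not pass in either condition.

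RT1-A encodes the classical class I heavy chain of the rat. Its probe set 1370429_at read 119.5, 112.9 and 175.1 in SS controls and 81.8, 90.8 and 67.7 in SS HTV lungs. BN lungs gave 38.9, 34.0 and 10.1 in controls and 11.2, 13 and 28.3 under HTV. Every SS array was above every BN array, and the 2 BN groups overlapped. BN controls were lower than SS controls by -1.85 ± 0.27 (adjusted p = 0.00112), and by -1.67 (adjusted p = 0.00401) without SS control 3. Under HTV the difference was -1.55 ± 0.27 (adjusted p = 0.00364). With pseudocounts of 1 and 64 in place of 16 the control difference was -2.43 and -1.13, a call in each case. The call held in both conditions with each array left out in turn.

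RT1-CE5 is a class I gene of the cluster that varies in gene number between rat strains. Its probe set 1371209_at (probe set 1) read 2.2, 1.1 and 498.4 in SS controls and 0.7, 1.1 and 0.7 in SS HTV lungs. The BN values were 1052.6, 858.6 and 923.1 in controls and 803.0, 714.1 and 773.4 under HTV. BN arrays were bright and SS arrays near 0, with SS control 3 in between. The BN minus SS difference was 4.14 ± 0.89 in controls (adjusted p = 0.0111) and 5.76 without SS control 3 (adjusted p = 4.56e-11). Leaving out SS control 2 instead lowered it to 3.31, still a call. Under HTV, where SS control 3 takes no part in the means, it was 5.53 ± 0.89 (adjusted p = 0.00213). Values this near 0 have no known distance from background, so the size is set by the pseudocount: with 1 and 64 it was 5.98 and 2.90 in controls and 8.71 and 3.67 under HTV, all calls.

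The other tested RT1-CE5 probe sets differed in the same direction, with smaller sizes. Probe set 2, 1388255_x_at, read 8.9, 2.6 and 351.3 in SS controls, 0.9 to 2.8 in SS HTV lungs and 501.8 to 679.1 in BN. It differed by 3.48 ± 0.76 in controls (adjusted p = 0.0117; 4.84 without SS control 3) and by 4.95 under HTV (adjusted p = 0.00153). Probe set 4, 1371210_s_at, differed by 2.25 in controls (adjusted p = 0.00532; 2.94 without SS control 3) and by 2.49 under HTV (adjusted p = 0.00294). Probe set 3, 1370972_x_at, read 37.6 to 100.8 in SS and 176.3 to 311.2 in BN, and differed by 1.76 in controls (adjusted p = 0.00151; 1.98 without SS control 3) and 1.59 under HTV (adjusted p = 0.00291). With only the arrays compared in the fit, probe sets 1 and 2 missed the threshold in controls (adjusted p = 0.0535 and 0.0549). The untested probe set 5, 1388254_a_at, read 1.6 to 4.6 on all 12 arrays, near 0 in both strains.

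RT1-T24-3 is a gene of the nonclassical class I region. Its probe set 1388694_at read 83.9, 69.4 and 538.6 in SS controls and 76.6, 56.1 and 67.4 in SS HTV lungs. BN lungs read 50.9, 26.4 and 16.9 in controls and 21.9, 24.7 and 37.0 under HTV. SS arrays were all above BN arrays, and SS control 3 was 2.47 log2 units beyond every other array. BN controls were lower by -1.89 ± 0.52 (adjusted p = 0.0328) and by -1.03 (adjusted p = 0.0255) without SS control 3. That call was lost without BN control 2 (adjusted p = 0.113) or BN control 3 (adjusted p = 0.110), with a pseudocount of 64 (adjusted p = 0.0522) and with only the control arrays fitted (adjusted p = 0.0993). Under HTV the difference was -0.92 ± 0.52 (adjusted p = 0.314), and without SS control 3, which takes part there through the shared spread, the adjusted p was 0.0228. It also passed with only the HTV arrays fitted (adjusted p = 0.0145) and with the beta-actin ratio as a covariate (-1.80, adjusted p = 0.0477).

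Probe sets whose names end in _x_at may bind several related sequences, and those ending in _s_at are shared by several transcripts. For this gene family, a difference of RNA level and a difference of allele sequence under the probes cannot be told apart on these arrays. The sources used here give no MHC haplotypes of the animals, so single RT1 genes are reported as uncertain. Tap1, Tap2, Psmb8 and Psmb9 also lie in the MHC, and allele sequence under their probes was not checked.

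**Figure D2:**
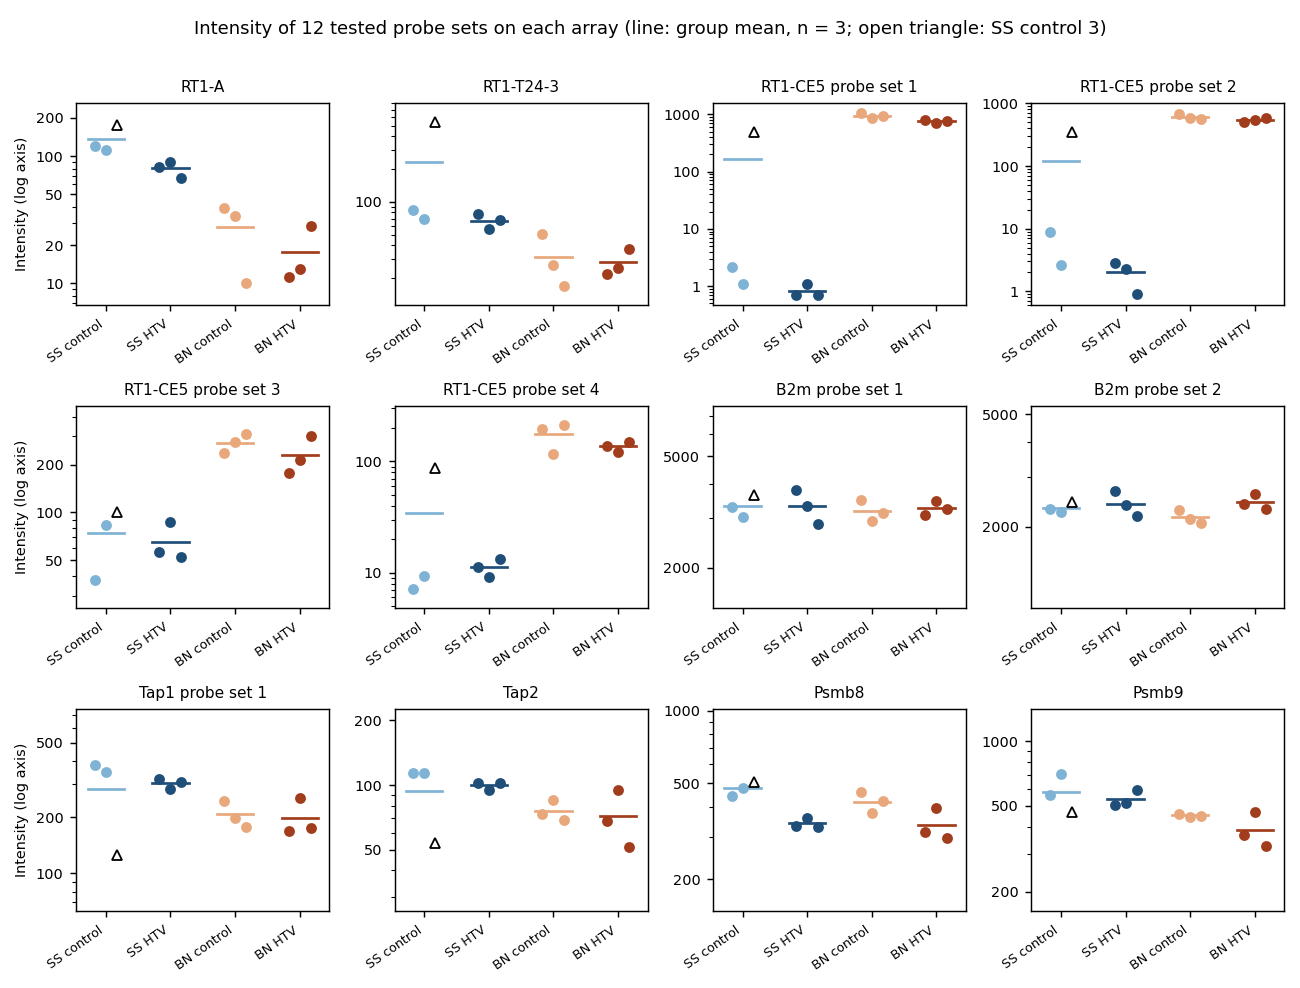
Intensity, on log axes, of the 12 tested probe sets on each of the 12 arrays, by group; horizontal lines are group means of 3 arrays and the open triangle is SS control 3. At RT1-CE5 probe sets BN arrays lie above SS arrays, at RT1-A below them, and at B2m the 4 groups overlap.

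The genes outside the heavy chain family differed less between the strains. B2m, the light chain common to all class I molecules, was bright and level: probe set 1 (1367595_s_at) read 3309.1, 3027.3 and 3637.1 in SS controls and 3481.7, 2937.7 and 3140.4 in BN controls. Under HTV it read 3791.1, 3335.1 and 2867.2 in SS and 3099.7, 3453.0 and 3245.4 in BN. All 4 groups overlapped. The BN minus SS difference in controls was -0.06, with a 95% confidence interval from -0.30 to 0.18. Under HTV it was -0.02, with an interval from -0.26 to 0.22. Probe set 2 (1371440_at) ranged from 2062.3 to 2674.0 over all arrays and differed between strains by -0.11 in controls and 0.02 under HTV.

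Tap1, a subunit of the peptide transporter, did not pass between the strains with all arrays and passed without SS control 3. Its probe set 1388149_at read 378.4, 346.9 and 125.8 in SS controls and 319.0, 281.8 and 309.0 in SS HTV lungs. In BN it read 244.3, 198.2 and 178.1 in controls and 169.3, 251.9 and 174.3 under HTV. The other 5 SS arrays were above all 6 BN arrays, and SS control 3 was below all of them. The difference in controls was -0.30 ± 0.30 (adjusted p = 0.532), and -0.77 (adjusted p = 0.0126) without that array. Under HTV it was -0.59 ± 0.30 (adjusted p = 0.254), with adjusted p = 0.0235 without it. It also passed with array weights in controls (adjusted p = 0.0241) and with only the HTV arrays in the fit (adjusted p = 0.0457). A second, untested probe set of Tap1, 1375379_at, ran the other way at 18.7 to 29.1 in SS controls and 40.1 to 43.7 in BN controls.

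Tap2, the partner subunit, read 113.2, 113.3 and 53.6 in SS controls and 102.3, 95.1 and 102.4 in SS HTV lungs at 1368732_at. Its BN values were 73.3, 85.2 and 69.0 in controls and 68.0, 94.9 and 51.6 under HTV. SS control 3 lay inside the BN range, and the other 5 SS arrays were above all BN arrays. The BN minus SS difference did not pass: -0.20 in controls (adjusted p = 0.596; -0.50 and 0.0928 without SS control 3) and -0.44 under HTV (adjusted p = 0.277; 0.104 without it).

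Psmb9 encodes a catalytic subunit of the immunoproteasome. Its probe set 1370186_at read 562.8, 706.3 and 470.1 in SS controls and 505.4, 516.5 and 594.0 in SS HTV lungs. In BN it read 460.5, 444.9 and 451.4 in controls and 365.1, 466.7 and 324.7 under HTV. BN arrays lay below SS arrays in each condition, and yet the differences of -0.33 (adjusted p = 0.166) and -0.48 (adjusted p = 0.0684) did not pass. Without SS control 3 they were -0.47 (adjusted p = 0.0564) and -0.48 (adjusted p = 0.0321). Under HTV it also passed without SS control 2 (adjusted p = 0.0462) or BN HTV 2 (adjusted p = 0.0350). With array weights it passed in controls (adjusted p = 0.0162) and under HTV (adjusted p = 0.0255), and in controls also without SS control 3 and BN HTV 3 together (adjusted p = 0.0412). Psmb8 overlapped between strains, with differences of -0.18 in controls (adjusted p = 0.343) and -0.04 under HTV (adjusted p = 0.902).

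Arrays of the strains did not overlap at 7 of the 12 probe sets in controls and at 9 under HTV. In controls 4 were higher in BN and 3 lower, where 33.2% of all tested probe sets did not overlap (17.7% higher, 15.5% lower). Under HTV 4 were higher and 5 lower, where 29.3% did not overlap (14% higher, 15.3% lower). These counts also lend no support of their own. Both hold RT1-A, RT1-T24-3 and RT1-CE5 probe sets 1, 2 and 4, which entered the test through the strain where they are high.

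**Figure D3:**
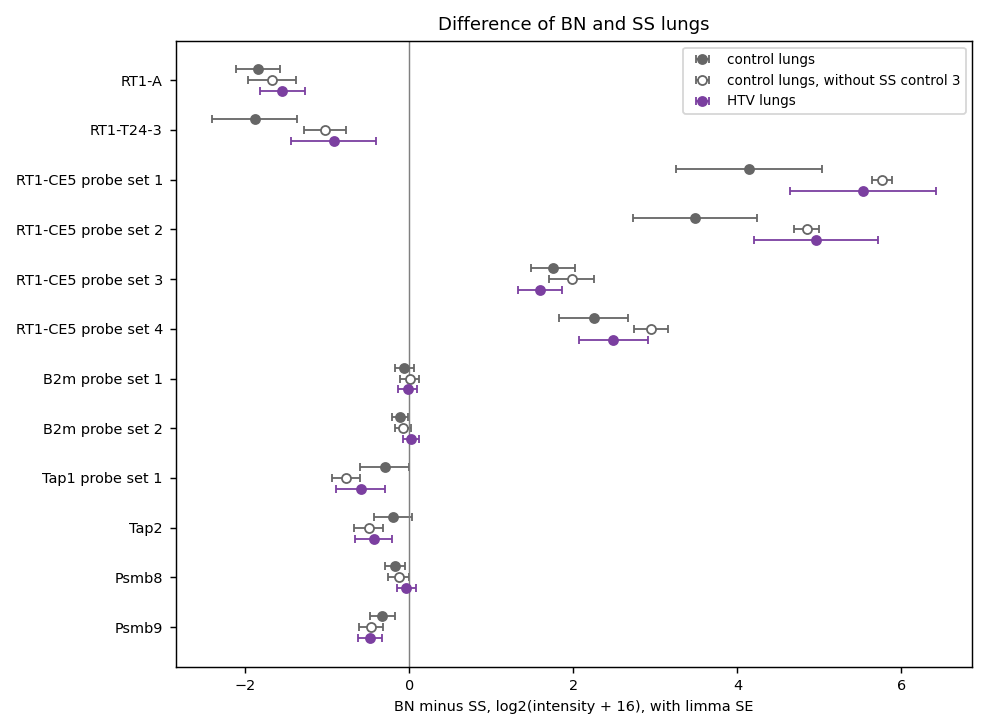
BN minus SS difference in log2(intensity + 16) for the 12 tested probe sets, as points with limma's SE, in control lungs, in control lungs without SS control 3, and in HTV lungs. RT1-CE5 lies to the right of 0, RT1-A and RT1-T24-3 to the left, B2m at 0, and Tap1 moves from -0.30 to -0.77 without the array.

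Of the 8 genes, Psmb8 was the one called for HTV. Psmb8, the immunoproteasome subunit that carries the chymotrypsin-like activity, was lower after HTV in SS lungs. It was the 1 of 12 probe sets called there, beside 8.06% over all tested probe sets (3.91% higher, 4.16% lower). In BN 0 of 12 were called by limma, with 1 at an unadjusted p below 0.05, beside 5.82% over all (2.96% higher, 2.86% lower). Taking both strains together 1 was called, again Psmb8, beside 15.7% over all (7.02% higher, 8.71% lower). Without SS control 3 the counts were 0 in SS (5.33% of all), 0 in BN (7.85%) and 1 over both (16.3%). The median difference was -0.28 in SS, -0.19 in BN and -0.29 over both, where all tested probe sets had -0.0050, -0.04 and -0.02. The medians in SS and over both hold SS control 3, and RT1-CE5 enters each median with several probe sets. In SS its probe sets 1 and 2 differed by -1.69 and -1.62, and by -0.07 and -0.26 without that array.

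The Psmb8 probe set 1367786_at read 445.0, 476.2 and 508.7 in SS controls and 332.7, 359.8 and 330.3 in SS HTV lungs. In BN it read 460.8, 377.7 and 422.8 in controls and 314.2, 393.8 and 295.5 under HTV. SS HTV arrays lay below SS controls without overlap, and in BN 1 HTV array lay inside the control range. The fall in SS was -0.46 ± 0.12 (adjusted p = 0.0306) and in BN -0.32 ± 0.12 (adjusted p = 0.145). The SS call was lost without SS control 3 (-0.42, adjusted p = 0.0804), SS control 2 (adjusted p = 0.0771), SS HTV 1 (adjusted p = 0.103) or SS HTV 3 (adjusted p = 0.0986). Over both strains the fall was -0.39 ± 0.08 (adjusted p = 0.00663), it was -0.37 (adjusted p = 0.0120) without SS control 3, and it passed with each array left out in turn. The fall in BN minus that in SS was 0.14, with a 95% confidence interval from -0.22 to 0.50 (adjusted p = 0.819).

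Cell markers also shifted with HTV. All 7 tested neutrophil markers were called higher over both strains (7.02% of all tested), and 5 to 7 over the alternatives and arrays left out. In SS alone 5 were called higher (3.91% of all tested) and in BN alone 6 (2.96%), each with 3 to 7 over the alternatives. Their summed intensity was 1400.7 to 2348.9 in SS controls and 5364.0 to 8105.7 in SS HTV lungs. In BN the sum was 922.1 to 1615.0 in controls and 2859.4 to 8503.5 under HTV. Of 13 tested T and NK cell markers 6 were called lower over both strains (8.71% of all tested), and the sum went from 1783.4 to 2936.1 in SS controls to 1642.1 to 1811.1 in SS HTV lungs, and from 1622.2 to 1748.3 in BN controls to 1040.9 to 1400.7 in BN HTV lungs. The neutrophil marker Mmp9 was near 0 in controls, at 7.3, 19.3 and 1.9 in SS and 8.5, 4 and 15 in BN. The part of these cells in the fall of Psmb8 was not tested.

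The heavy chain genes did not pass for HTV. RT1-A was lower in SS HTV lungs by -0.64 ± 0.27 (adjusted p = 0.158), with no overlap of the arrays, and by -0.35 ± 0.27 in BN (adjusted p = 0.536), where they overlapped. Over both strains it was -0.49 ± 0.19 (adjusted p = 0.0993), which passed without BN control 3 (adjusted p = 0.0157) or BN HTV 3 (adjusted p = 0.0475). RT1-CE5 probe set 1 differed by -1.69 in SS (adjusted p = 0.255), and by -0.07 without SS control 3. In BN the same probe set was lower by -0.30 ± 0.89, with no overlap of the arrays (adjusted p = 0.904). SS control 3 takes part there through the shared spread, and without it the SE was 0.11 and the adjusted p 0.124, not a call. RT1-T24-3 differed by -1.03 in SS (adjusted p = 0.236), by -0.17 without SS control 3, and by -0.06 in BN.

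B2m differed by -0.0024 in SS at probe set 1, with a 95% confidence interval from -0.25 to 0.24, and by 0.04 in BN. At probe set 2 BN HTV arrays, at 2402.0, 2613.6 and 2309.5, were above BN controls, at 2296.0, 2126.1 and 2062.3. That difference was 0.17 ± 0.09 and did not pass (adjusted p = 0.339). Tap1 differed by 0.23 in SS and -0.07 in BN, and the SS value was -0.25 without SS control 3 (adjusted p = 0.426), with its direction turned. Tap2 went from 0.14 to -0.16 in the same way and was -0.10 in BN. Psmb9 differed by -0.09 in SS and -0.24 in BN, neither past the test. HTV and control arrays did not overlap at 2 of the 12 probe sets in SS (0 higher and 2 lower, beside 29.8% of all tested, 14% higher and 15.8% lower). In BN they did not overlap at 2 (1 higher and 1 lower, beside 26.6%, 10.9% higher and 15.7% lower).

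A test of whether HTV acted differently in the strains called 0 of the 12 probe sets by limma, with 0 at an unadjusted p below 0.05, and 0% of all tested.

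**Figure D4:**
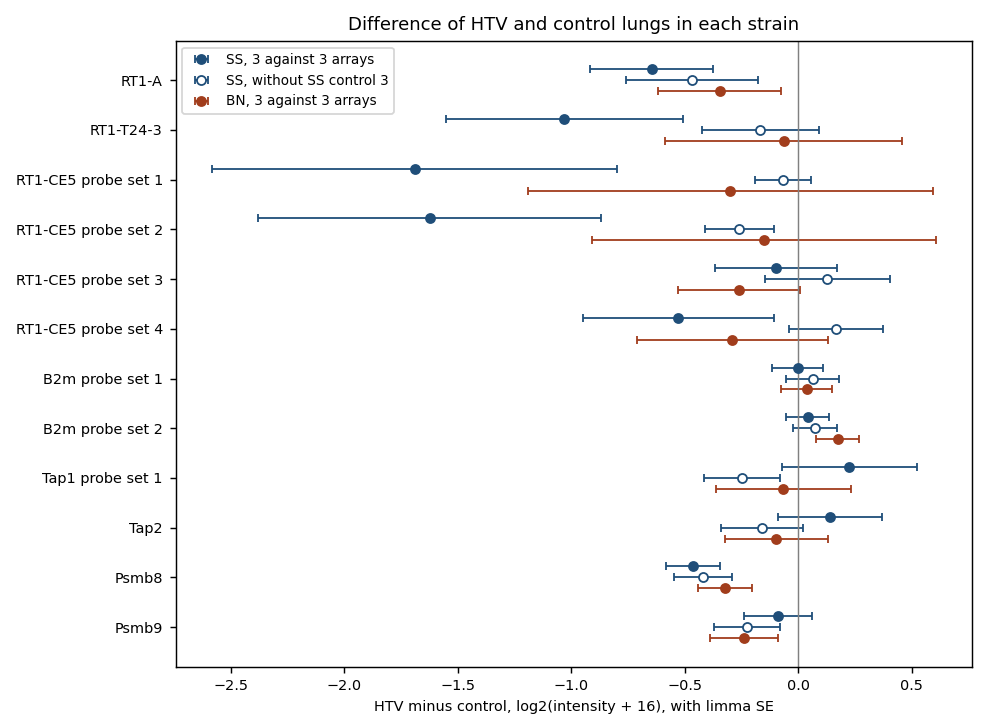
HTV minus control difference in log2(intensity + 16) with limma's SE for the 12 tested probe sets, in SS, in SS without SS control 3, and in BN. Psmb8 lies left of 0 in both strains, and the RT1-CE5 and RT1-T24-3 values in SS move towards 0 without the array.

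Other genes of the pathway were taken from lists. Of 13 other class I and class I-like genes 3 were called higher and 1 lower in BN controls, and 3 higher and 2 lower in BN under HTV. Over all tested probe sets 6.41% were higher and 5.84% lower in controls, and 4.42% and 3.82% under HTV, and these shares also stand behind the strain counts of the lists that follow. Without SS control 3 the counts were 1 higher and 2 lower in controls, and 3 and 3 under HTV. RT1-CE16 was higher by 1.10 in controls (adjusted p = 0.00101; 0.98 without SS control 3) and 0.81 under HTV, and RT1-CE12 was lower by -1.03 (adjusted p = 0.000948; -0.85 without it) and -0.72. RT1-CE10 was higher by 0.62 (adjusted p = 0.0386; 0.0835 without SS control 3) and 0.80. Procr, the endothelial protein C receptor with a class I-like fold, rose with HTV by 0.80 in SS (adjusted p = 0.0019; 0.75 without SS control 3) and 0.57 in BN. Of 9 peptide loading and trimming genes 1 was called, Tpp2, a cytosolic peptidase. It fell with HTV by -0.52 over both strains (adjusted p = 0.0109; -0.42 without SS control 3). It was also lower with HTV in SS (-0.62, adjusted p = 0.042) and in BN controls (-0.67, adjusted p = 0.0245), and both of these calls were lost without SS control 3 (adjusted p = 0.118 and 0.0582).

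A few other proteasome genes were called. Of 6 immunoproteasome assembly and activator genes 1 was lower in BN controls: Psme2, a subunit of the PA28 activator, by -0.80 (adjusted p = 0.0266; 0.0741 without SS control 3). Psmg2, an assembly chaperone, fell with HTV by -0.33 in BN (adjusted p = 0.0433) and -0.31 over both strains (-0.32 without SS control 3). Psmb10, the remaining inducible catalytic subunit, was not called in any comparison. Of the 2 tested constitutive catalytic subunits Psmb7 was lower in BN, by -0.61 (adjusted p = 0.0173; -0.50 without SS control 3) in controls and -0.51 (adjusted p = 0.0438) under HTV.

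Among 26 regulators of class I genes and of interferon signalling 3 were called lower and 0 higher in BN in each condition, also without SS control 3. The 12.2% and 8.24% called in either direction over all tested probe sets are close to that, and in controls the alternatives gave 1 to 5 lower and 0 to 3 higher. Nlrc5, the transactivator of class I genes, read 94.7, 100.3 and 64.9 in SS controls and 88.2, 75.6 and 99.2 in SS HTV lungs. In BN it read 42.4, 49.0 and 42.3 in controls and 43.2, 49.6 and 31.3 under HTV. Every SS array was above every BN array, the difference was -0.74 ± 0.17 in controls (adjusted p = 0.0147; -0.91 without SS control 3) and -0.86 ± 0.17 under HTV (adjusted p = 0.00791). Irf7, an interferon regulatory factor, was lower by -1.20 (adjusted p = 0.00545; -1.55 without SS control 3) and -1.72 (adjusted p = 0.000564). Irf9, which binds the response element with Stat proteins, was lower under HTV by -0.77 (adjusted p = 0.00461). With HTV, Rela, an NF-kB subunit, rose by 0.75 in SS (0.63 without SS control 3) and 0.56 in BN. Nfya, a CCAAT-binding subunit, fell by -0.60 in BN (adjusted p = 0.0236) and by -0.54 in SS (adjusted p = 0.0325; 0.0712 without SS control 3).

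More of the interferon-induced genes were called lower than higher in BN. In controls 7 of 24 were called lower and 1 higher, with a median of -0.43; under HTV 16 were lower and 1 higher, with a median of -0.75. Over all tested probe sets 5.84% and 3.82% were lower, and the medians were 0.02 and -0.01. In controls the count lower was 15 without SS control 3, 1 without SS control 2, 0 without BN control 2, 2 without BN control 3, 5 without SS control 1, 16 with array weights and 3 with only the control arrays fitted. Under HTV it ranged from 11 to 17 over the alternatives and arrays left out. Ifit3, an antiviral effector, was lower by -1.08 (-1.40 without SS control 3) and -1.83, Isg15, a ubiquitin-like modifier, by -1.73 under HTV (adjusted p = 0.0012), and Ifi27 by -0.53 (-0.64 without SS control 3) and -0.92. Of the 4 genes with a positive difference in controls and the 3 under HTV, the one called was Bst2, the membrane protein tetherin, by 0.89 (adjusted p = 0.00215; 0.75 without SS control 3) and 0.70. With HTV in SS, 4 of the 24 were called higher and 0 lower (3.91% and 4.16% of all tested), and 3 and 2 without SS control 3. With HTV in BN, 0 were called higher and 2 lower (2.96% and 2.86% of all tested), and 1 and 3 without SS control 3. The test of whether HTV acted differently in the strains called 0 of the 24.

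Of 13 markers of T and NK cells, which make interferon and read class I, 4 were called lower in BN controls and 2 under HTV, where 5.84% and 3.82% of all tested were lower. In controls the count was 8 without SS control 3, 1 without SS control 1, SS control 2 or BN control 2, 2 without BN control 1 and 8 with array weights. Under HTV it was 4 without SS control 3, 1 without SS HTV 2 or BN HTV 1, and 0 without SS HTV 3 or BN HTV 2. Their part in the interferon genes was not tested.

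**Figure D5:**
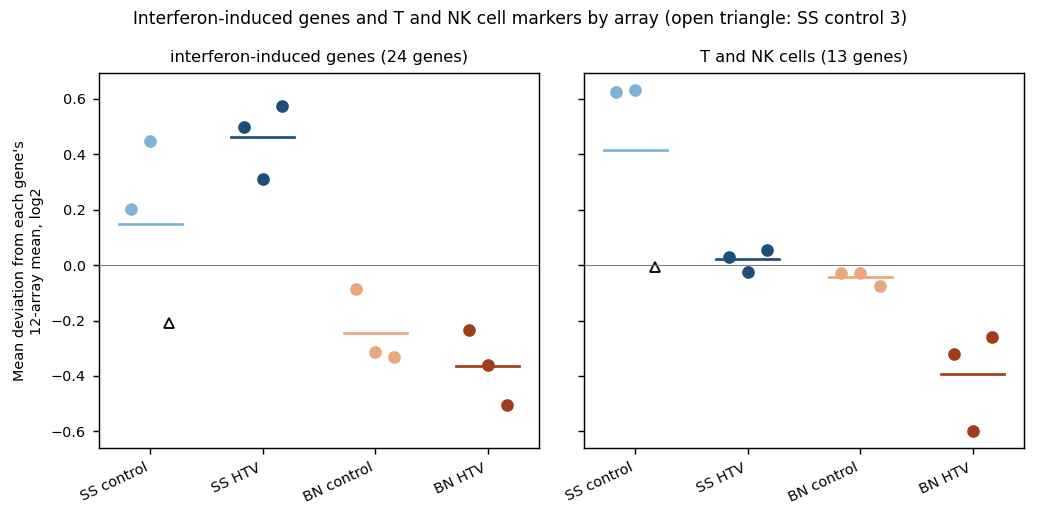
Mean deviation of 24 interferon-induced genes and of 13 T and NK cell markers from each gene's 12-array mean, in log2, for each array; lines are group means of 3 arrays and the open triangle is SS control 3. At the interferon-induced genes the SS arrays other than SS control 3 lie at 0.20 to 0.57 and the BN arrays at -0.50 to -0.09.

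Of 44 framework and class III genes of the MHC region 2 were called higher and 2 lower in BN controls, and 1 higher and 3 lower under HTV. Without SS control 3 the counts were 2 and 2, and 2 and 3, and the shares are near or below those over all tested probe sets (12.2% and 8.24%). Of 7 class II genes, which present peptides from outside the cell, 2 were called lower in BN controls and 3 under HTV, also without SS control 3. RT1-Ba, a class II alpha chain, was lower by -1.35 (adjusted p = 0.00237; -1.68 without SS control 3) and -1.66 (adjusted p = 0.00057) at its probe set with the highest mean, which stood for it in the list. Its other tested probe sets ran the other way. One read 26.4 to 95.4 in the SS arrays other than SS control 3, 55.5 in SS control 3 and 1902.6 to 2508.0 in BN. The other read 58.4 to 145.8 in those SS arrays, 44.4 in SS control 3 and 1875.6 to 2446.5 in BN. SS control 3 thus lay far below the BN range at both. RT1-Ba thus has no single direction here, and the limit on allele sequence holds for it too. At untested probe sets of RT1-Bb and RT1-Ba, SS control 3 read 573.8 and 347.1, above both strains. The other SS arrays read 4.5 to 36 and 26.3 to 51 there, and the BN arrays 7.4 to 33.7 and 6.1 to 56.6.

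Across the 12 arrays Tap1, Tap2 and Psmb9 varied together. Tap1 and Tap2 correlated at r = 0.926, with 0.897 for deviations from group means and 0.903 for 11 arrays without SS control 3. Tap2 and Psmb9 correlated at 0.801, 0.824 and 0.901 in the same order, and Tap1 and Psmb9 at 0.728, 0.714 and 0.866. Psmb8 and Psmb9, which lie close together, correlated at 0.497, and B2m with Tap1 at -0.07. Arrays share strain and processing, so these values are descriptions with no test. By the same measure the genes most like Psmb9 were Ly6c and Igtp (r = 0.936 for each), those most like Tap2 were Tmem106a (0.946) and Tap1, and the one most like B2m was Gpx1 (0.890). RT1-CE5 was most like Clec3b (0.993), Psmb8 most like Rfwd3 (0.945), RT1-A most like Gsta4 (0.953) and RT1-T24-3 most like Vdac3 (0.960).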

How the data were processed

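Right lung RNA of 12 rats was measured on 12 Affymetrix arrays, 3 per group, per the labels. Linear intensities per probe set were deposited by the authors and computed with MAS5, per the submitters' processing notes. Its settings do not appear in the sources used here. A mean trimmed below percentile 2 and above percentile 98 was 149.596 to 149.994 per array, so values were not normalized again. No detection calls were used, so how far a value lay above background is unknown, and precision is limited by the number of arrays.

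Of 31099 probe sets 57 controls were left out. Genes were named from probe sets annotated to 1 gene (20826 probe sets; 436 had several and 9780 none). Probe sets with a mean log2(intensity + 16) at or above the 40th percentile (intensity 42.2) were kept, 18625 in all. The 4 group means were fitted with limma 3.58.1 in R 4.3.3 (eBayes with a trend) on 8 residual degrees of freedom. Benjamini-Hochberg adjustment of p-values ran over the whole kept table, separately for 6 comparisons. The model was also run on simulated data with normal noise, no strain difference and no outlying array. That run does not test the calls reported here. Within a list, genes with the smallest p were named, up to 6, and for each gene those most alike by Pearson's r, up to 3. Genes and lists were chosen with earlier results of these data known. The spread behind each p-value is that between these animals' arrays. Sequences are RefSeq's, assembly GRCr8. Alternatives changed the pseudocount, filter, normalization, trend, array weights, the arrays fitted, a beta-actin covariate and the arrays left out.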

Additional observations from a re-analysis of the deposited data

How the results depend on the processing

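No paired analysis was possible because the labels give the groups no shared replicate numbers. The main counts of genes called were 1, 0, 1, 3 and 2 for HTV in SS, HTV in BN, HTV over both strains, and the strains in controls and under HTV. They moved under a 60th percentile filter (1 in both strain comparisons, since RT1-A and RT1-T24-3 no longer entered the test), array weights (1 for HTV in BN, 5 for the strains in controls), the arrays compared alone (4 for the strains under HTV), the beta-actin ratio as a covariate (2 for HTV over both strains) and the removal of both SS control 3 and BN HTV 3 (0 for HTV in SS, 5 for the strains in controls). With each array left out they ranged from 0 to 1 for HTV in SS, 1 to 2 for HTV over both, 2 to 4 for the strains in controls and 2 to 5 under HTV. RT1-A and RT1-CE5 kept their direction in both strain comparisons under each alternative run. Differences that turned sign were not called. With quantile normalization B2m probe set 1 had 0.068 for HTV in SS and -0.019 in BN, and probe set 2 had -0.10 between strains under HTV. With median centring B2m probe set 1 had 0.0099 for HTV in SS. With array weights the values for HTV in SS were 0.062 (B2m probe set 1), -0.12 (Tap1) and -0.087 (Tap2), RT1-T24-3 had 0.024 for HTV in BN, and B2m probe set 1 had 0.00072 between strains in controls. With the beta-actin covariate B2m probe set 1 had 0.0014 for HTV in SS, Tap1 had 0.069 for HTV in BN and 0.018 between strains in controls, and B2m probe set 2 had -0.050 between strains under HTV. Without SS control 3 and BN HTV 3 the values for HTV in SS were 0.13 and 0.17 (RT1-CE5 probe sets 3 and 4), 0.064 (B2m probe set 1), -0.25 (Tap1) and -0.16 (Tap2), those for HTV in BN were 0.010 (Tap1) and 0.076 (Tap2), and those between strains were 0.0062 in controls (B2m probe set 1) and 0.044 under HTV (Psmb8). With each array left out, HTV in SS ranged from -0.43 to 0.13 and -0.91 to 0.17 (RT1-CE5 probe sets 3 and 4), -0.10 to 0.10 and -0.033 to 0.11 (B2m probe sets 1 and 2), -0.25 to 0.49 (Tap1), -0.16 to 0.29 (Tap2) and -0.22 to 0.061 (Psmb9). HTV in BN ranged from -0.30 to 0.22 (RT1-T24-3), -0.019 to 0.10 (B2m probe set 1), -0.24 to 0.052 (Tap1) and -0.28 to 0.076 (Tap2). The strains ranged from -0.13 to 0.0062 in controls (B2m probe set 1), and under HTV from -0.12 to 0.077 and -0.053 to 0.094 (B2m probe sets 1 and 2) and -0.15 to 0.044 (Psmb8). The cause of these shifts was not tested. With 3 arrays a group, small differences are out of reach, and dim values such as those of RT1-CE5 in SS lungs have no known distance from background.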

Other observations

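Probe sets annotated to several genes were outside the rule for the 8 genes. One of them, annotated to 5 class I genes, RT1-A and RT1-CE5 among them, read 324.5, 309.5 and 184.1 in SS controls and 275.2, 263.6 and 291.3 in SS HTV lungs. BN lungs read 121.9, 74 and 106.8 in controls and 111.3, 63 and 42.3 under HTV. It was lower in BN by -1.29 in controls (limma adjusted p = 0.00881) and by -1.81 under HTV (limma adjusted p = 0.00113), opposite to the RT1-CE5 probe sets. A further one, annotated to RT1-A, RT1-CE16 and RT1-A1, did not pass between the strains. It differed by -0.31 in controls (limma adjusted p = 0.475) and by -0.31 under HTV (limma adjusted p = 0.546). Another class I probe set annotated to several genes, RT1-A3 and RT1-A2, read 1486.2 in SS control 3, 30.8 to 42.3 in the other SS arrays and 1448.1 to 1834.9 in BN. That puts SS control 3 inside the BN range, and BN lies above the other SS arrays, opposite to the RT1-A probe set. These probe sets were chosen after their values were seen.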
